A study of Mus musculus with 23 samples.

Results

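The oocyte messenger RNAs that outlast fertilisation and the first cleavage were followed in mouse oocytes and embryos without maternal Cxxc1. Deletion 2-cell embryos (3 libraries) were compared with deletion germinal vesicle (GV) oocytes (3 libraries), and a gene was counted where its FPKM reached 1 or more in any 2 of these 6 libraries. That rule kept 11936 of the 24506 entries of the expression table, 48.7%, and 11581 entries when the third 2-cell library was left out. FPKM is the number of fragments assigned to a gene, scaled by transcript length and by the mapped fragments of the library. The study profiled GV oocytes, zygotes and 2-cell embryos, wild type or lacking Cxxc1, in 23 RNA libraries. The deletion GV oocytes came from 3-week Cxxc1 fl/fl;Zp3-Cre females. The deletion zygotes (3 libraries) and 2-cell embryos came from Cxxc1 fl/fl;Zp3-Cre females mated to wild-type males, so each embryo carried a wild-type paternal allele. GV oocytes of 3-month Cxxc1-deleted females carrying Gdf9-Cre (3 libraries), and wild-type GV oocytes of that age (3 libraries), are not compared here but entered the fit and its estimate of the spread. Wild-type counterparts were GV oocytes of 3-week females (3 libraries), zygotes (3 libraries) and 2-cell embryos (2 libraries) from wild-type parents. The age of the females that gave embryos, and the number of animals or collections behind the libraries of each group, are not stated in the labels, so the p-values measure a spread between libraries that may be technical.

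Cxxc1 encodes CFP1, the CXXC zinc-finger subunit that binds unmethylated CG dinucleotides and brings the SETD1 complexes, which methylate histone H3 at lysine 4, to CpG-island promoters. Zp3-Cre is driven by the promoter of a zona pellucida gene and deletes floxed alleles in growing oocytes, so RNA made before the deletion can persist in the stored pool. The fully grown GV oocyte is arrested in the first meiotic prophase and stops transcribing. It then lives on stored maternal RNA, part of which is cleared during meiotic maturation and part after the embryo begins to transcribe its own genome, which in the mouse happens mainly at the 2-cell stage.

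Cxxc1 itself was low before and after both transitions. It read 0.893, 1.02 and 1.49 FPKM in deletion oocytes and 1.17, 0.626 and 4.16 FPKM in deletion 2-cell embryos, and the libraries of both stages overlapped. Wild-type GV oocytes held 39.9, 37.9 and 41.5 FPKM and wild-type 2-cell embryos 9.94 and 11 FPKM. The stage change without Cxxc1 was 0.31 ± 0.26 (SE; limma adjusted p = 0.308) on the log2(FPKM + 1) scale, and −0.17 without the third 2-cell library; neither was called. Every log2 change given here is on this scale, which understates changes of genes with low values.

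Oocyte genes were high in the deletion GV libraries. They do not check the label of the deletion 2-cell libraries. There, transcripts that mark the 2-cell stage had a median of 3.24 FPKM, against 29.1 in wild-type 2-cell embryos. In deletion oocytes Gdf9, an oocyte growth factor, stood at 1955, 1923 and 1753 FPKM and Zp3, a sperm-binding zona pellucida glycoprotein, at 1437, 1295 and 1274 FPKM. The third deletion 2-cell library stood apart. Its correlation with the other deletion 2-cell libraries over the counted genes, on the log2 scale, was 0.943 and 0.937, against 0.980 between those 2 libraries and 0.979 to 0.988 among the deletion GV libraries. In it 248 genes reached 5 FPKM or more that stayed under 1 in both other 2-cell libraries, and 172 of them were under 1 in every deletion GV library. Markers of several other cell types were raised in it. The 21 granulosa and cumulus markers summed to 189.0 FPKM there, against 35.3 and 35.2 FPKM in its fellow libraries and 126.6 to 141.2 FPKM in deletion oocytes. The 13 stroma and muscle markers summed to 403.5 FPKM against 41.6 and 28.1 FPKM, and the 16 immune markers to 73.0 FPKM against 11 and 3.91 FPKM. The 12 oviduct epithelium markers summed to 110.5 FPKM against 57.3 and 52.4 FPKM, but deletion zygotes held 123.3, 123.1 and 116.4 FPKM. The 8 endothelium markers differed little, at 21.3 FPKM against 17.3 and 16.9 FPKM. The 11 blood markers stayed at or under 0.437 FPKM in all 3 deletion 2-cell libraries, and the 8 sperm markers summed to 8.2 to 12.3 FPKM. Whether such cells were present, and their part in the results, was not tested. The main shares and counts, and the lists, are given with and without this library.

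**Figure D1:**
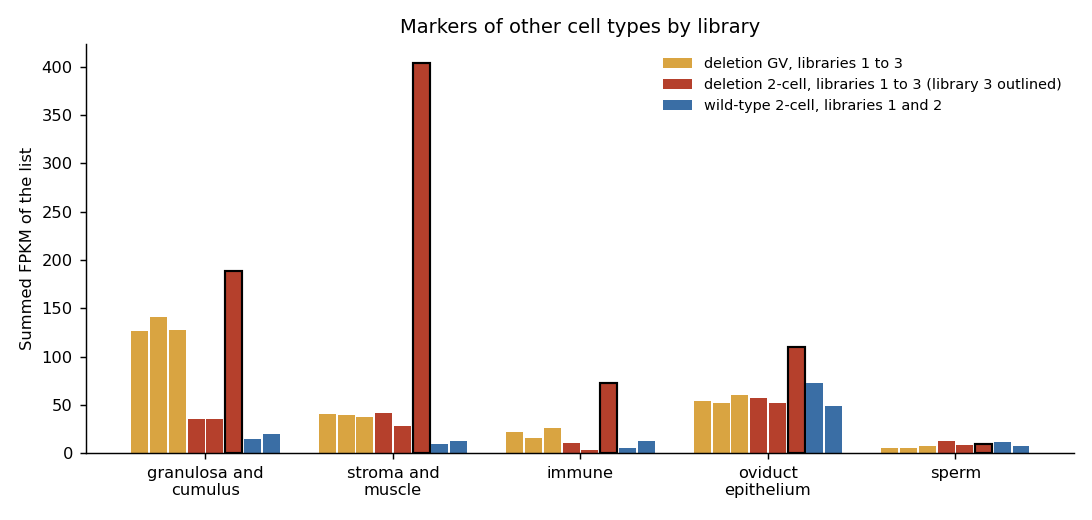
Summed FPKM of marker lists of other cell types (vertical axis) in each deletion GV, deletion 2-cell and wild-type 2-cell library, 1 bar per library. The outlined bar, deletion 2-cell library 3, reaches 403.5 FPKM for stroma and muscle markers and 189.0 FPKM for granulosa and cumulus markers.

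Most oocyte genes were still detected at the 2-cell stage, and most stayed near their oocyte level. Of the 11158 genes with a mean FPKM of at least 1 in deletion oocytes, 89.2%, 87.0% and 93.6% were still at an FPKM of at least 1 in the deletion 2-cell libraries, a mean of 89.9% ± 3.39 (SD, n = 3), or 88.1% without the third library. The corresponding shares of the 10725 oocyte genes of wild type were 87.9% and 88.3%, inside the range of the deletion libraries. This depended on scaling. After median-of-ratios scaling the wild-type shares, 90.6% and 91.1%, were again inside the deletion range. After quantile normalization they were 85.1% and 85.7%, below the deletion shares of 92.2%, 91.5% and 89.0%. At the level of amounts the genotypes lay apart. Genes at 0.5 or more of their mean oocyte FPKM made up 66.1%, 62.5% and 70.6% of the oocyte genes of deletion embryos, against 58.6% and 58.0% in wild type, with no overlap.

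The pool that was lost was smaller without Cxxc1. Genes that had fallen at least 4-fold had held 16.5%, 20.2% and 13.7% of the oocyte FPKM of deletion oocytes (mean 16.8% ± 3.28 SD, n = 3; 18.4% without the third library), against 34.0% and 36.2% in wild type. Both genotypes also differed in what was added. Genes under 1 FPKM in the oocyte gave 0.699%, 0.590% and 2.43% of the FPKM of deletion 2-cell embryos, 0.644% on average without the third library, against 6.41% and 5.07% in wild type. The number of such genes at an FPKM of at least 1 was 530, 483 and 1886 in the deletion libraries and 1839 and 1815 in wild type. The third deletion library, whose markers of other cell types were raised, lay above both wild-type libraries. After median-of-ratios scaling the lost pool was 10.6% to 15.5% in deletion and 26.0% and 27.8% in wild-type libraries, and after quantile normalization 11.5% to 17.3% and 30.2% and 30.8%, again without overlap. With 3 libraries against 2, an exact two-sided permutation test cannot go below 0.1, so none of these differences can pass a threshold of 0.05. FPKM is relative to each library's total, and a loss of all messenger RNA in proportion cannot be told apart from no loss.

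**Figure D2:**
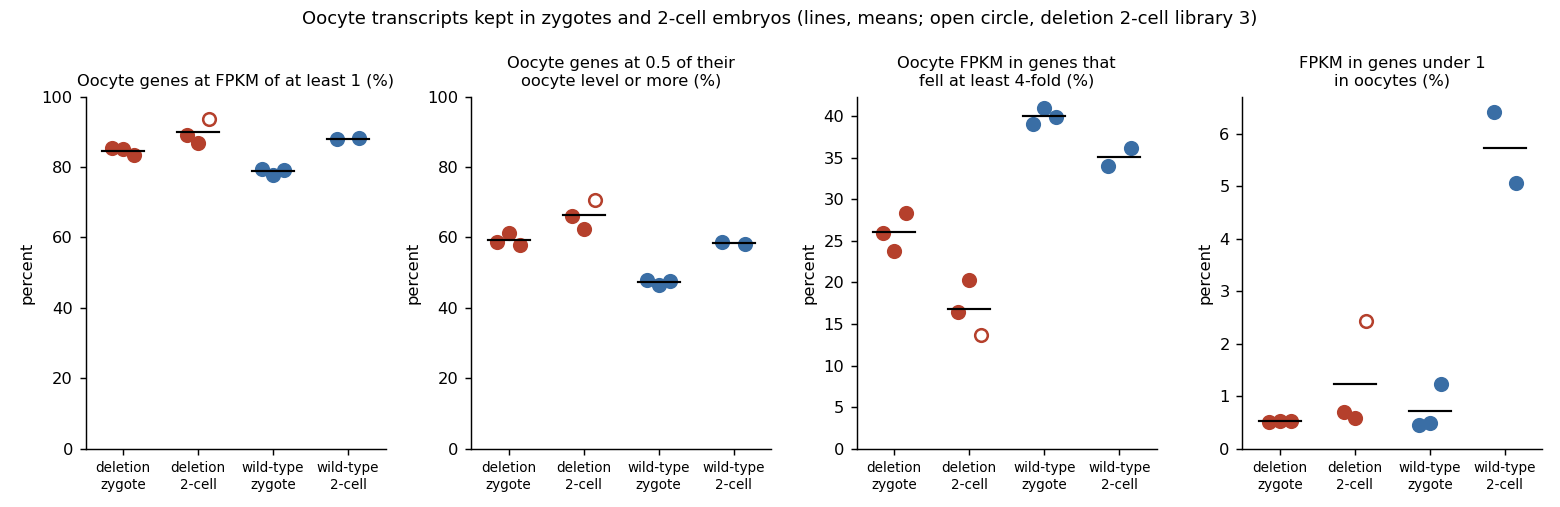
Percent of oocyte genes or of FPKM (vertical axes), 1 point per library, in zygotes and 2-cell embryos without Cxxc1 and in wild type; lines are means and the open circle is deletion 2-cell library 3. Deletion 2-cell embryos sit at 13.7% to 20.2% for oocyte FPKM in genes that fell at least 4-fold, below both wild-type 2-cell libraries.

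On deposited FPKM the zygote did not lie midway, and its shares were not computed under the other scalings. In deletion zygotes 85.5%, 85.1% and 83.4% of the oocyte genes were at an FPKM of at least 1, and genes that had fallen at least 4-fold had held 26.0%, 23.8% and 28.4% of the oocyte FPKM, more than in any deletion 2-cell library. In wild-type zygotes that share was 39.0%, 41.0% and 39.9%. The ratio of the group means, 2-cell over GV, had a median of 0.764 over the oocyte genes of deletion embryos and 0.650 in wild type. It lay between 0.5 and 2 for 6505 genes without Cxxc1, 58.3%, and for 42.7% in wild type; it was under 0.1 for 118 genes, 1.06%, against 772 genes, 7.20%, in wild type. Without the third library the deletion values were a median of 0.710, 55.5% between 0.5 and 2, and 339 genes, 3.04%, under 0.1. Over the 10387 genes at a mean of at least 1 in the oocytes of both genotypes, 783 kept at least 0.5 of their level in deletion embryos and 0.25 or less in wild type, and 254 did the reverse. Leaving out the third library gave 747 and 477.

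Tested gene by gene, 2903 of the 11936 counted genes (24.3%) were higher in deletion 2-cell embryos than in deletion oocytes and 5236 (43.9%) were lower, at a Benjamini-Hochberg adjusted p under 0.05 in limma fitted to all 23 libraries. The remaining 3797 genes, 31.8%, were not called. A change of at least 2-fold was called for 945 of the higher and 2823 of the lower genes. Without the third 2-cell library 2712 of 11581 genes (23.4%) were higher and 5430 (46.9%) lower. The balance depended on scaling: higher genes made up 35.7% of the calls on deposited FPKM, 48.5% (3831 higher, 4066 lower) after median-of-ratios scaling and 50.4% (4004 higher, 3946 lower) after quantile normalization. The median change over all counted genes was −0.26 on deposited FPKM and moved to −0.02 and −0.01 under those scalings, so directions below are best read against −0.26, and a gene family whose direction turned with scaling is named as such.

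**Figure D3:**
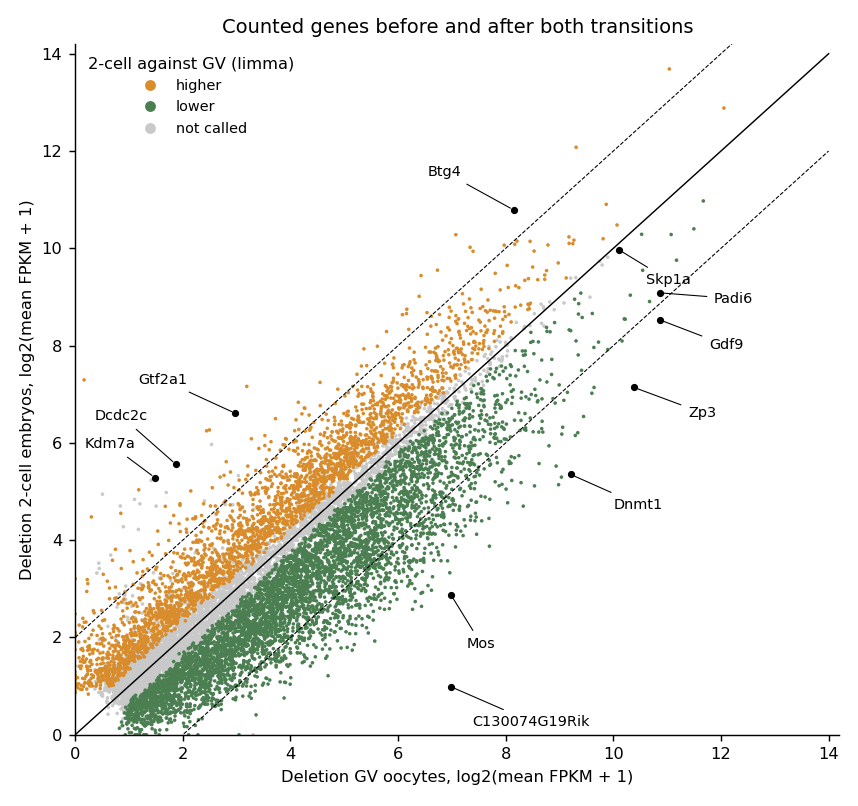
Mean level of each counted gene in deletion GV oocytes (horizontal axis) and deletion 2-cell embryos (vertical axis), both as log2(mean FPKM + 1), coloured by the limma call; the solid line marks equal levels and dashed lines 2 log2 units above and below. Btg4, Gtf2a1, Kdm7a and Dcdc2c lie above the upper dashed line, and Dnmt1, Mos and C130074G19Rik below the lower one.

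Genes picked for the highest oocyte level were mostly lower at the 2-cell stage, a direction that picking by oocyte level favours by itself. How far the selection accounts for these falls was not tested. Over all counted genes 24.3% were higher and 43.9% lower, with a median of −0.26. Of the 100 genes with the highest mean FPKM in deletion oocytes, 18 were higher at the 2-cell stage, 66 lower and 16 not called, with a median log2 change of −0.97. Among them 46 were still within the 100 most abundant genes of deletion 2-cell embryos, against 30 of the corresponding 100 genes in wild type, and 24 had fallen at least 4-fold in mean, against 56 in wild type. Without the third library the deletion counts were 46 and 27.

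Several abundant messages stood at nearly the same level at both stages. Skp1a, a subunit of SCF ubiquitin ligases, read 1010.4, 1230.4 and 1049.5 FPKM in deletion oocytes and 972, 1113 and 922 FPKM in deletion 2-cell embryos, and its libraries overlapped. Pttg1, the gene of securin, read 757, 816 and 999 FPKM in deletion oocytes and 743, 1032 and 775 FPKM in deletion 2-cell embryos, again with overlap. Their log2 changes were −0.13 and −0.02, and neither was called. With median-of-ratios scaling and without the third 2-cell library both were called as rises, at 0.29 and 0.40. In wild-type 2-cell embryos Skp1a stood at 76.0 and 79.9 FPKM and Pttg1 at 272 and 211 FPKM, below every deletion library. The same was so for Slbp, the histone mRNA stem-loop binding protein, at 391, 502 and 316 FPKM in deletion and 109 and 135 FPKM in wild-type 2-cell embryos. Other abundant genes of little change were Eif4e1b, an oocyte cap-binding protein, Mat2b, the regulatory subunit of a methionine adenosyltransferase, Prdx2, a peroxiredoxin, D6Ertd527e and AU022751, with log2 changes from −0.08 to 0.09 and no call. D6Ertd527e was called as a rise of 0.30 with median-of-ratios scaling and without the third 2-cell library.

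Some abundant messages stood higher at the 2-cell stage. Dppa3, the maternal factor that shields the maternal genome from loss of DNA methylation in the zygote, went from 835, 1074 and 891 to 1769, 2248 and 1729 FPKM, a log2 change of 1.03 ± 0.10 (SE; limma adjusted p = 5.12e-08). Cks2, a cyclin-dependent kinase subunit needed for meiosis, went from 335, 341 and 428 to 807, 1199 and 943 FPKM, a change of 1.4 ± 0.13 (SE; limma adjusted p = 2.12e-08). Neither gene's libraries overlapped between stages. Polr2j, a subunit of RNA polymerase II, rose by 1.29 and Mphosph6, an exosome partner, by 1.05. The largest rises in this class were of the entries RGC-GFP and RGC-mRFP, named as in the table, with 1702, 2172 and 2439.7 FPKM in oocytes and 11932, 16492 and 11105 FPKM in 2-cell embryos for the former. Both entries rose, by 2.64 and 2.76.

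Other abundant messages stood far lower at the 2-cell stage. Dnmt1, the maintenance DNA methyltransferase, dropped from 663, 595 and 512 to 45.4, 18.9 and 55.2 FPKM, a log2 change of −3.98 ± 0.26 (SE; limma adjusted p = 1.10e-10). Bub1b, a spindle checkpoint kinase, dropped from 520.4, 519.8 and 474 to 29.8, 20.8 and 52.1 FPKM, a change of −3.94 ± 0.19 (SE; limma adjusted p = 2.88e-12). No library overlapped between stages for either gene. Tacc3, a spindle microtubule protein, changed by −4.04, Plat, the tissue plasminogen activator, by −3.58, Cpsf4l by −3.53 and Zp3 by −3.36. These falls took different routes. Tacc3 and Cpsf4l already stood at 33.5, 11 and 9.87 FPKM and 18.2, 14.6 and 8.75 FPKM in deletion zygotes, whereas Bub1b and Plat were at 619, 474 and 585 FPKM and 494, 659 and 406 FPKM there and fell after the zygote.

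The largest falls over all counted genes included Mos, the kinase that holds the egg in metaphase II. It read 126, 125 and 126 FPKM in deletion oocytes and 4.79, 2.34 and 11.9 FPKM in deletion 2-cell embryos, a log2 change of −4.32 ± 0.27 (SE; limma adjusted p = 7.99e-11), with no overlap. The largest was of C130074G19Rik, at 125, 124 and 126 FPKM in deletion oocytes and 1.42, 0.965 and 0.568 FPKM in deletion 2-cell embryos, a change of −6.01 ± 0.16 (SE; limma adjusted p = 4.02e-15). That message had reached 1.38, 0.612 and 0.973 FPKM by the zygote, and wild-type 2-cell embryos held 16.5 and 12.4 FPKM. Fcf1, a factor of small-subunit ribosome assembly, changed by −4.13, the ribosomal protein gene Rpl26 by −4.12, Tmem39b by −3.92, Fam83g by −3.92 and Bloc1s1, a subunit of the BLOC-1 trafficking complex, by −3.87, all called. In Bloc1s1 the third 2-cell library read 21.1 FPKM against 1.93 and 1.04 FPKM in the others.

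The largest rises fell into 2 patterns by stage. Kdm7a, a histone lysine demethylase, read 1.46, 1.32 and 2.60 FPKM in deletion oocytes and 37.6, 37.4 and 39.1 FPKM in deletion 2-cell embryos, and deletion zygotes already held 35.0, 34.5 and 34.7 FPKM. Foxn2, a forkhead transcription factor, read 5.08, 3.99 and 4.85 FPKM in deletion oocytes and 76.7, 76.3 and 74.9 FPKM in deletion 2-cell embryos, with 95.6, 91.3 and 95.5 FPKM in zygotes. Gtf2a1, the large subunit of general factor TFIIA, read 6.83, 6.70 and 7.0 FPKM in deletion oocytes and 95.7, 81.1 and 114 FPKM in deletion 2-cell embryos, with 183, 147 and 183 FPKM in zygotes. Their log2 changes over both transitions were 3.83, 3.78 and 3.63, and Chsy1, a chondroitin synthase, and Gm13363 had the same course with 3.80 and 3.97. The second pattern was a rise after the zygote. Dcdc2c, a doublecortin domain gene, read 2.70, 2.93 and 2.32 FPKM in deletion oocytes and 58.5, 24.4 and 56.1 FPKM in deletion 2-cell embryos and 3.04, 1.5 and 2.95 FPKM in zygotes, a change of 3.60 ± 0.25 (SE; limma adjusted p = 2.43e-10). Gm7102 and Gm4340 were alike, with changes of 3.64 and 3.24. All 3 stood far lower than in wild-type 2-cell embryos, where Dcdc2c read 584 and 685 FPKM and Gm7102 298 and 357 FPKM.

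Among the largest rises, 2 were uneven between libraries. Saa3, an acute-phase serum amyloid gene, read 7.15, 1.65 and 459 FPKM in deletion 2-cell embryos, so its change of 4.28 became 2.07 without the third library, in which markers of other cell types were raised. Eif3j1, a translation initiation factor subunit, has a near-identical copy and read 28.2, 0.368 and 0.442 FPKM in deletion oocytes. The first oocyte library of Eif3j1 stood far above the others, and its stages did not overlap. Its change of 3.89 was no longer called without the third 2-cell library (limma adjusted p = 0.0706).

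The counts by transition depended on scaling. Between deletion oocytes and deletion zygotes 2919 counted genes were higher (24.5%) and 5665 lower (47.5%), with a median of −0.37. Between deletion zygotes and deletion 2-cell embryos 4217 were higher (35.3%) and 2329 lower (19.5%), with a median of 0.23. After median-of-ratios scaling the counts were 4160 higher and 4479 lower across the first transition and 3568 and 2626 across the second. Quantile normalization turned both directions, with 4704 higher and 3893 lower across the first and 2892 and 2997 across the second, so no direction is given for either transition as a whole. These comparisons share the zygote libraries, and each shares a group with the comparison over both transitions. A rise in FPKM does not separate newly made RNA from stored RNA that was captured more fully, and poly(A) selection is not stated in the labels.

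Zona pellucida and gamete fusion genes kept more of their oocyte level than in wild type. Of 10 members counted, 3 were higher and 5 lower, where 24.3% and 43.9% of all counted genes were. The median was −1.0 against −0.26 over all counted genes. Zp2, which sperm must find intact to bind, read 1159, 1210.4 and 1064 FPKM in deletion oocytes and 305, 201 and 311 FPKM in deletion 2-cell embryos, a log2 change of −2.09 ± 0.14 (SE; limma adjusted p = 1.38e-10). Wild-type 2-cell embryos had 26.5 and 22.9 FPKM of Zp2, from 939, 991 and 958 FPKM in wild-type oocytes. Zp1, the zona cross-linking protein, changed by −2.39, Astl, the cortical granule protease ovastacin that cleaves ZP2, by −2.83, and Izumo1r, the sperm receptor Juno, by −2.77. The 3 members that rose, named for completeness after their values were seen, were the oocyte-secreted protein genes Oosp3 and Oosp1 and the fusion tetraspanin gene Cd9, with log2 changes of 1.83, 0.91 and 0.74.

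Oosp2, an oocyte-secreted protein gene, was the zona-list member that differed most from wild type. It read 164, 162 and 150.1 FPKM in deletion oocytes and 150.1, 203 and 158 FPKM in deletion 2-cell embryos, with overlap and no call, while wild type went from 262, 282 and 268 FPKM in oocytes to 13.6 and 13.2 FPKM in 2-cell embryos. The difference between the stage changes, deletion minus wild type, was 4.32 ± 0.16 (SE; limma adjusted p = 1.97e-13). For the whole list that difference was higher without Cxxc1 for 9 of 10 members, with a median of 2.30, where 34.1% of all counted genes were higher (4072 genes), 24.9% lower (2970 genes), and the median was 0.18. The excess of higher over lower genes in that background depended on the settings: 3484 against 3338 after median-of-ratios scaling, 4565 against 2852 after quantile normalization, and 4138 against 4271 among 20647 genes with no filter on low values. Without the third 2-cell library these background shares were 34.9% higher (4036 genes) and 28% lower (3243 genes), and 9 members of the zona list were again higher. Differences between the oocytes of the genotypes also enter this measure. In deletion GV oocytes 2446 counted genes were higher and 1439 lower than in wild type, or 1497 and 1747 after median-of-ratios scaling. The zona list's median FPKM was 177 in deletion and 278 in wild-type oocytes, and 109 and 22.7 in 2-cell embryos.

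The subcortical maternal complex, a protein lattice of the egg cortex that embryos need to pass the 2-cell stage, behaved alike. Of its 8 members 1 rose and 6 fell, with a median of −1.52, where 43.9% of all counted genes fell. The difference from wild type was higher for all 8, with a median of 3.09. Padi6, a lattice protein related to arginine deiminases, read 1788, 1852 and 1977 FPKM in deletion oocytes and 685, 517 and 423 FPKM in deletion 2-cell embryos, and wild-type 2-cell embryos 58.0 and 41.9 FPKM. Ooep read 504, 566 and 378 FPKM in deletion oocytes and 122, 95.2 and 119 FPKM in deletion 2-cell embryos, and wild-type 2-cell embryos 10.4 and 15.8 FPKM. Neither gene's stages overlapped, and both deletion 2-cell groups lay wholly above wild type. Tle6 and Khdc3, other core members, changed by −2.52 and −2.23, with differences from wild type of 2.27 and 3.22. Nlrp4f was not called over both transitions (log2 change 0.21) and differed from wild type by 3.27 ± 0.21 (SE; limma adjusted p = 2.04e-10).

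The other oocyte Nlrp genes, whose products carry leucine-rich repeats, were counted 9 times. Of these 2 were higher and 4 lower, shares near the 24.3% and 43.9% of all counted genes. The median of the 9, −0.33, was near that of all genes and came to −0.08 and −0.03 under the other scalings. All 9 kept more of their level than in wild type, by a median of 2.60. Part of this difference lies in the oocytes. The list's median FPKM was 61.4 in deletion and 108.2 in wild-type oocytes, and 39.0 and 17.2 in 2-cell embryos. Nlrp14, at 1193, 1292 and 1047 FPKM in deletion oocytes and 423, 343 and 355 FPKM in deletion 2-cell embryos, changed by −1.65 ± 0.10 (SE; limma adjusted p = 2.59e-11). Nlrp4e, at 22.7, 26.3 and 24.0 FPKM in deletion oocytes and 34.2, 40.4 and 33.8 FPKM in deletion 2-cell embryos, changed the other way, by 0.55 ± 0.09 (SE; limma adjusted p = 3.02e-05); wild type went from 74.7, 81.1 and 68.0 FPKM to 16.5 and 18.0 FPKM. Reads of near-identical Nlrp copies can be split between genes, so values of single copies are uncertain. The 4 oogenesins, a family of oocyte leucine-rich repeat genes with the same limit, were 1 higher and 2 lower with a median of −0.22, which turned to 0.08 and 0.05 under the other scalings. Oog4 was the member that changed most, at −0.85.

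Growth factors and receptors of the oocyte were mostly lower, 7 of the 8 counted, with a median of −0.96. Over all counted genes 43.9% were lower. Under both other scalings 5 were lower, where 34.1% and 33.1% of all counted genes were. Gdf9 dropped from 1955, 1923 and 1753 to 370.5, 331 and 399.6 FPKM, a change of −2.35 ± 0.08 (SE; limma adjusted p = 3.10e-14), with wild-type 2-cell embryos at 110.0 and 112 FPKM. Its partner Bmp15 dropped from 669, 689 and 599 to 357, 397 and 446 FPKM, a change of −0.71 ± 0.15 (SE; limma adjusted p = 3.20e-04). Gja4, the connexin of the junctions between oocyte and granulosa cells, changed by −3.77, Pde3a, the phosphodiesterase that controls meiotic arrest, by −1.21, and Fgf8 by −1.41. The summed markers of granulosa cells, which surround the oocyte, moved over the same interval in the first and second 2-cell libraries, from 126.6 to 141.2 FPKM summed to 35.3 and 35.2 FPKM, and their part in these falls was not tested. In such pooled samples fewer cells of a type and less RNA per cell cannot be told apart.

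Oocyte transcription factors split by member. Of 14 counted, 7 rose and 4 fell, against 24.3% and 43.9% of all counted genes. Nobox, a homeobox factor of oocyte growth, read 308, 278 and 286 FPKM in deletion oocytes and 196, 169 and 129.6 FPKM in deletion 2-cell embryos, a change of −0.83 ± 0.11 (SE; limma adjusted p = 1.57e-06), against 10.5 and 11.7 FPKM in wild-type 2-cell embryos. Figla and Lhx8, factors of early follicles, changed by −1.58 and −1.44. The Obox homeobox family went 3 ways. Obox5 rose by 1.42. Obox2 was not called in deletion embryos, at 223, 279 and 210.4 FPKM in deletion oocytes and 307, 335 and 164 FPKM in deletion 2-cell embryos, while wild type fell to 62.3 and 46.3 FPKM. Obox3 and Obox6 read 4.87, 5.68 and 5.49 FPKM and 2.70, 2.57 and 1.33 FPKM in deletion 2-cell embryos against 132 and 122 FPKM and 77.2 and 78.0 FPKM in wild type, differences between the stage changes of −4.70 and −4.82, both called. Reads of Obox copies can also be split between genes.

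**Figure D4:**
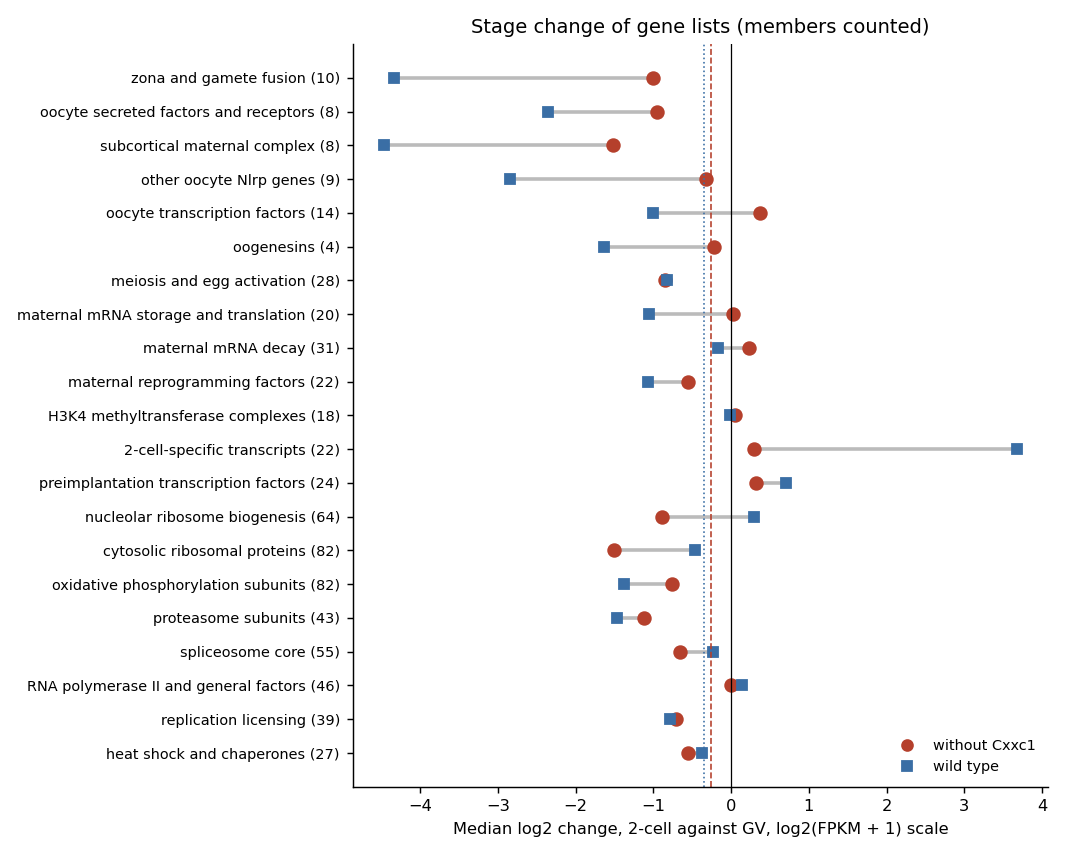
Median log2 change of each gene list between GV oocytes and 2-cell embryos (horizontal axis), circles without Cxxc1 and squares in wild type, with the number of members counted in brackets; dashed and dotted lines are the medians of all counted genes without Cxxc1 and in wild type. The subcortical maternal complex sits at −1.52 without Cxxc1, to the right of wild type, and the 2-cell-specific transcripts at 0.30, to the left of wild type.

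Genes of meiosis and egg activation were 7 higher and 16 lower of 28, against 24.3% and 43.9% of all counted genes. The median of the list was −0.85. Beside Mos and Bub1b, Cdk1, the kinase of M phase, dropped from 38.8, 36.8 and 37.3 to 5.53, 2.2 and 5.54 FPKM, a change of −2.91 ± 0.23 (SE; limma adjusted p = 1.54e-09), while wild-type 2-cell embryos stood at 47.0 and 35.9 FPKM. Fbxo5, the inhibitor Emi1 of the anaphase-promoting complex, changed by −2.88, and Aurkb, the chromosomal passenger kinase, by −1.17. For these 3 genes the stage change was lower than in wild type, by −3.36, −2.04 and −2.41, all called. More of the list went the other way. The stage change was higher than in wild type for 15 of 28 members and lower for 10, with a median of 0.58. Over all counted genes 34.1% were higher and 24.9% lower. Without the third 2-cell library 15 members were higher and 11 lower.

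Regulators of stored messenger RNA went both ways. Of 20 storage and translation genes 8 rose and 7 fell, where 24.3% of all counted genes rose and 43.9% fell. Zar1, an RNA-binding protein that stabilises stored messages, read 1199, 1154 and 1223 FPKM in deletion oocytes and 407, 387 and 322 FPKM in deletion 2-cell embryos, a change of −1.68 ± 0.10 (SE; limma adjusted p = 3.21e-11), and wild-type 2-cell embryos 30.5 and 31.3 FPKM. Cpeb1, which controls cytoplasmic polyadenylation, changed by −2.82, Zar1l by −3.0, and Pabpc1l, the embryonic poly(A)-binding protein, by −1.8, whereas Pum2, a Pumilio repressor, rose by 2.06. Dazl, a translational activator of meiosis, rose by 0.66, to 66.5, 112 and 82.2 FPKM, while wild type was at 9.52 and 11.9 FPKM.

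Of 31 genes of the decay machinery 14 rose and 7 fell, with a median of 0.22, where 24.3% of all counted genes rose. Btg4, the adaptor that brings the CCR4-NOT deadenylase to maternal messages, read 279, 302 and 265 FPKM in deletion oocytes and 1647, 2039 and 1625 FPKM in deletion 2-cell embryos, a change of 2.64 ± 0.09 (SE; limma adjusted p = 2.16e-14), with no overlap. Wild-type 2-cell embryos held 1039 and 931 FPKM, and the difference from wild type was 1.31 ± 0.13 (SE; limma adjusted p = 6.52e-08). The deadenylase Cnot7 read 64.8, 77.9 and 74.6 FPKM in deletion oocytes and 278, 380.3 and 307 FPKM in deletion 2-cell embryos, a change of 2.13 ± 0.10 (SE; limma adjusted p = 2.59e-12). Pan3, of the PAN2-PAN3 deadenylase, rose by 2.19, the deadenylase Cnot6l by 0.91 and the decapping activator Dcp1a by 0.65. In the other direction Cnot10 changed by −2.43. Pabpn1l, a nuclear-type poly(A)-binding protein that works with Btg4, was low from the start, at 14.1, 14.1 and 10.8 FPKM in deletion oocytes against 217, 228 and 247 FPKM in wild type, and read 2.89, 6.0 and 2.84 FPKM in deletion and 7.04 and 5.65 FPKM in wild-type 2-cell embryos.

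Maternal reprogramming factors were 6 higher and 12 lower of 22, against 24.3% and 43.9% of all counted genes. H1foo, the oocyte linker histone, read 1574, 1748 and 1571 FPKM in deletion oocytes and 483, 484 and 469 FPKM in deletion 2-cell embryos, a change of −1.76 ± 0.10 (SE; limma adjusted p = 2.09e-11), with wild-type 2-cell embryos at 81.8 and 59.4 FPKM. Zfp57, a zinc-finger protein that guards imprints, read 1557, 1472 and 1449 FPKM in deletion oocytes and 931, 839.7 and 472 FPKM in deletion 2-cell embryos, a change of −1.06 ± 0.17 (SE; limma adjusted p = 2.28e-05), with wild type at 56.4 and 58.9 FPKM. Neither gene overlapped between stages. Npm2, the chaperone that decondenses sperm chromatin, changed by −1.55, Uhrf1, the Dnmt1 partner, by −1.52 and Trim28, a corepressor of zinc-finger proteins, by −1.83. Suz12, a subunit of Polycomb complex 2, rose by 2.17. The differences from wild type were 2.87 for H1foo, 3.38 for Zfp57 and −1.61 for Trim28, all called.

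The H3K4 methyltransferase complexes, to which CFP1 belongs, were 6 higher and 6 lower of 18 counted, Cxxc1 included. Over all counted genes 24.3% were higher and 43.9% lower. The median of 0.05 became 0.34 and 0.38 under the other scalings. Kmt2d, an H3K4 monomethyltransferase of enhancers, rose from 6.71, 5.85 and 7.65 to 36.1, 24.8 and 37.7 FPKM, a change of 2.11 ± 0.14 (SE; limma adjusted p = 2.37e-10). Its relative Kmt2c rose by 1.58, the demethylase Kdm6a of the same complexes by 1.49 and the shared core subunit Dpy30 by 1.27. Men1, the menin of KMT2A complexes, changed by −2.10, the core subunit Rbbp5 by −1.58 and Pagr1a, a partner of KMT2C and KMT2D, by −1.32. Of the 18 genes, 5 had a higher and 3 a lower stage change than in wild type, shares under those of all counted genes. Among the 5 was Cxxc1 itself, with a difference of 2.14, the deleted gene that was low at both deletion stages.

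Transcripts known to mark the 2-cell stage rose less than in wild type. Of 22 counted, 9 were higher and 4 lower, where 24.3% and 43.9% of all counted genes were. The median was 0.30, against a wild-type median of 3.67. Without the third library it was 0.02 with the same counts. The difference from wild type was lower for 20 of 22 members, with a median of −3.12, and lower for 19 without the third library. Their median FPKM was 2.14 in deletion oocytes, 0.506 in deletion zygotes and 3.24 in deletion 2-cell embryos, and 29.1 in wild-type 2-cell embryos. Spz1 read 0.0875, 0 and 0.226 FPKM in deletion oocytes and 4.51, 3.00 and 5.26 FPKM in deletion 2-cell embryos, a change of 2.23 ± 0.16 (SE; limma adjusted p = 4.12e-10), and wild-type 2-cell embryos 33.8 and 39.0 FPKM. Tmem92 read 1.5, 1.26 and 1.59 FPKM in deletion oocytes and 2.93, 3.69 and 2.68 FPKM in deletion 2-cell embryos, and wild-type 2-cell embryos 75.4 and 74.9 FPKM. The wild-type libraries lay above every deletion library for both genes. Tdpoz1 stayed at or under 0.618 FPKM in deletion 2-cell embryos, against 31.5 and 24.5 FPKM, and Tdpoz5 read 3.01, 1.22 and 1.22 FPKM against 49.4 and 38.9 FPKM. Sp110 and Arg2 had oocyte pools that changed by −2.69 and −2.71, both called. Reads of Tdpoz copies can be split between genes.

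Preimplantation transcription factors were 11 higher and 7 lower of 24, where 24.3% and 43.9% of all counted genes were. Their stage change was lower than in wild type for 14 and higher for 2, against 24.9% and 34.1% of all counted genes. Dppa4, a pluripotency-associated chromatin protein, read 20.9, 23.6 and 22.2 FPKM in deletion oocytes and 6.64, 4.84 and 9.46 FPKM in deletion 2-cell embryos, a change of −1.58 ± 0.15 (SE; limma adjusted p = 2.58e-08), whereas wild type rose to 124 and 101 FPKM from 11.6, 11.4 and 12.7 FPKM. Klf5, a Krüppel-like factor of the blastocyst, read 2.02, 1.08 and 1.87 FPKM in deletion and 51.5 and 34.6 FPKM in wild-type 2-cell embryos, with a difference between stage changes of −4.02 ± 0.26 (SE; limma adjusted p = 2.54e-10). Tbx3, a T-box factor, differed by −2.90, a call. Esrrb, an orphan nuclear receptor, and Sox15 changed by −1.82 and −2.82 between deletion stages, both called.

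Genes of ribosome production were mostly lower. Of 64 nucleolar ribosome biogenesis genes 4 were higher and 50 lower, 78.1% lower where 43.9% of all counted genes were, with a median of −0.89. Under both other scalings 35 were lower, where 34.1% and 33.1% of all counted genes were. Rrp9, a U3 snoRNP protein, read 10.7, 11.9 and 11.2 FPKM in deletion oocytes and 5.11, 5.33 and 6.39 FPKM in deletion 2-cell embryos, a change of −0.89 ± 0.12 (SE; limma adjusted p = 3.40e-06), with 1.12, 1.14 and 1.05 FPKM in deletion zygotes and 163 and 138 FPKM in wild-type 2-cell embryos. Nop56, a box C/D snoRNP core protein, dropped from 46.6, 52.3 and 47.5 to 8.97, 4.10 and 12.9 FPKM, with wild-type 2-cell embryos at 55.5 and 51.2 FPKM. Rrp9 and Nop56 did not overlap between stages, and wild-type 2-cell libraries lay above all deletion ones. Emg1 changed by −2.50, the helicase Ddx18 by −2.34 and Gnl2 by −2.25. The stage change of the list was lower than in wild type for 50 of 64 members and higher for 7, with a median of −1.13. Among those lower were Nop2, an rRNA methyltransferase, by −4.57, and Nob1, the nuclease that finishes 18S rRNA, by −4.08.

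Cytosolic ribosomal protein genes fell in 63 of 82 and rose in 5, with a median of −1.51, where 43.9% of all counted genes fell. Under median-of-ratios scaling 53 fell and under quantile normalization 59. The change went in 2 steps: the list's median FPKM was 161 in deletion oocytes, 19.5 in deletion zygotes and 66.4 in deletion 2-cell embryos. Rpl7a read 393, 433 and 409.5 FPKM in oocytes, 28.4, 14.1 and 8.50 FPKM in zygotes and 55.9, 28.1 and 137 FPKM in 2-cell embryos. The third 2-cell library was the highest for Rpl7a. Without that library 69 fell and the median was −2.04, and the number with a stage change lower than in wild type went from 33 to 62. Reads of ribosomal protein genes can be shared with processed copies.

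Genes of respiration and of protein degradation are set against 43.9% of all counted genes lower and 24.3% higher. Of 82 oxidative phosphorylation subunits 13 rose and 48 fell, with a median of −0.76. Under the other scalings 42 and 40 fell, where 34.1% and 33.1% of all counted genes did. Of 43 proteasome subunits 5 rose and 33 fell, with a median of −1.12, and 27 and 26 fell under those scalings. Ndufa9, a complex I subunit, dropped from 69.9, 74.6 and 81.9 to 6.69, 2.44 and 13.7 FPKM, and Psmc5, a proteasome ATPase, from 151, 163 and 159 to 22.8, 25.6 and 27.4 FPKM. In contrast Ndufs5, a complex I subunit, was not called in deletion embryos, at 84.8, 130 and 100.5 FPKM, and stood at 9.22 and 0.000802 FPKM in wild-type 2-cell embryos. For oxidative phosphorylation 43 of 82 members had a higher stage change than in wild type and 12 a lower one, with a median of 0.69. For the proteasome the counts were 18 and 12, with a median of 0.22 that came to −0.03 after quantile normalization.

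Spliceosome genes were 16 higher and 31 lower of 55, replication licensing genes 8 and 27 of 39, and chaperones 4 and 15 of 27. Their medians were −0.66, −0.71 and −0.56, and 24.3% of all counted genes were higher and 43.9% lower. Under median-of-ratios scaling 27, 19 and 12 members were lower, where 34.1% of all counted genes were. After quantile normalization 29, 20 and 12 were lower, where 33.1% of all counted genes were. RNA polymerase II subunits and general factors were evenly divided, 19 higher and 18 lower of 46, with a median of 0.00 that became 0.29 and 0.39 under the other scalings. Mcm5, a subunit of the replicative helicase, fell from 89.8, 85.9 and 90.9 to 13.8, 8.76 and 14.3 FPKM. Hspa1a, an inducible HSP70 and an early zygotic gene in wild type, fell from 67.8, 47.9 and 42.5 to 4.26, 2.35 and 8.32 FPKM, a change of −3.27 ± 0.30 (SE; limma adjusted p = 1.08e-08), where wild type went from 4.52, 6.47 and 6.54 to 38.4 and 29.9 FPKM. Its near-identical copy Hspa1b changed by −3.58, and reads can be split between these copies. Snrpc, a U1 snRNP protein, read 29.2, 33.6 and 29.3 FPKM in deletion and 191 and 157 FPKM in wild-type 2-cell embryos, while Lsm5, of the U6 ring, read 182, 255 and 171 FPKM and 8.68 and 12.6 FPKM.

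The lists without the third 2-cell library are given as the number higher, the number lower and the median log2 change between deletion stages. Over all genes then counted the median was −0.34, and 23.4% were higher and 46.9% lower. Zona and gamete fusion genes gave 3, 6 and −1.4, and the subcortical maternal complex 2, 6 and −1.36. Growth factors and receptors gave 6 lower with a median of −0.97. The Nlrp genes gave 3, 3 and −0.29, oogenesins 1, 2 and −0.13, and oocyte transcription factors 8, 4 and 0.57. Meiosis genes gave 6, 16 and −0.58, storage genes 8, 9 and −0.09, decay genes 14, 6 and 0.26, and reprogramming factors 7, 12 and −0.51. H3K4 complexes gave 6, 6 and −0.03, so the sign of their median turned, as did that of the storage genes. Preimplantation factors gave 12, 7 and 0.31, nucleolar genes 6, 46 and −1.01, respiration genes 13, 49 and −0.82, and proteasome genes 6, 30 and −1.07. Spliceosome genes gave 16, 32 and −0.59, RNA polymerase II genes 20, 19 and 0.14, replication genes 8, 24 and −0.46, and chaperones 4, 17 and −0.78.

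**Figure D5:**
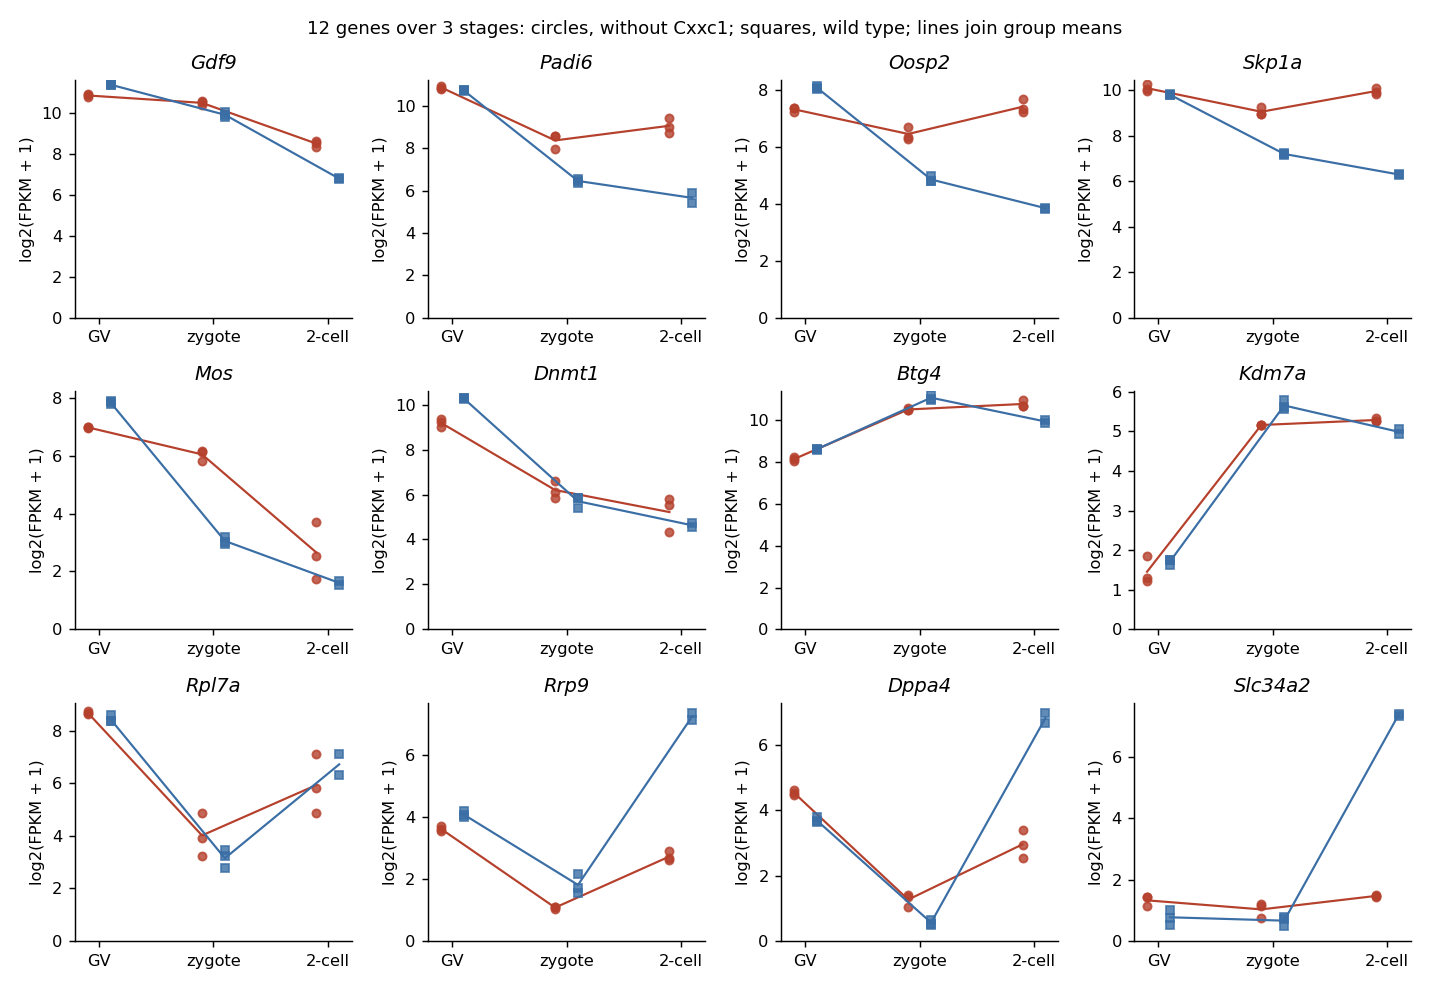
log2(FPKM + 1) of 12 named genes (vertical axes) in GV oocytes, zygotes and 2-cell embryos, 1 symbol per library, circles without Cxxc1 and squares in wild type, with lines through group means. Oosp2 and Skp1a end near their oocyte level in deletion embryos and lower in wild type, and Rrp9, Dppa4 and Slc34a2 end higher in wild type.

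Set side by side, the stage changes of both genotypes shared no library and had a Pearson correlation of 0.555 across counted genes, given as a description because genes are not independent. Of the 5579 counted genes that fell in wild type, 3669 (65.8%) also fell without Cxxc1, 1396 were not called and 514 rose. Of the 3279 that rose in wild type, 1635 (49.9%) also rose, 1005 were not called and 639 fell. The counting rule asks for expression in deletion samples, so genes seen only in wild-type embryos lie outside it and outside these counts.

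Among the genes whose stage change stood highest above wild type were messages that wild-type embryos held at far lower levels than their oocytes. Pfdn4, a prefoldin subunit, read 87.2, 104 and 98.7 FPKM in deletion oocytes and 319, 449 and 243 FPKM in deletion 2-cell embryos, whereas wild type went from 196, 189 and 183 to 31.1 and 23.9 FPKM, a difference of 4.5 ± 0.22 (SE; limma adjusted p = 5.55e-12). Rgs2, a regulator of G-protein signalling, read 137, 150.4 and 149 FPKM in deletion oocytes and 125, 151 and 60.8 FPKM in deletion 2-cell embryos, and wild-type 2-cell embryos 9.53 and 4.20 FPKM, a difference of 4.17 ± 0.36 (SE; limma adjusted p = 8.27e-09). The libraries of Rgs2 overlapped between deletion stages. Gm813, E330017A01Rik and Gm11985 differed by 4.20, 4.16 and 4.20, Srp54c, one of several near-identical signal recognition particle genes, by 5.04 and Ndufs5 by 4.73, all called. Srp54c read 0.00107, 6.68 and 31.3 FPKM in deletion oocytes, a wide spread. A further 2 genes met the naming rule through wild-type oocytes alone: Mir7035 was listed at 0 in all 6 deletion libraries, and Pnpla3 was at or under 0.331 FPKM in them.

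The genes whose stage change stood furthest below wild type were mostly high in wild-type 2-cell embryos and low in oocytes. Slc34a2, a sodium-phosphate cotransporter, read 1.67, 1.19 and 1.67 FPKM in deletion oocytes and 1.77, 1.70 and 1.81 FPKM in deletion 2-cell embryos, and wild-type 2-cell embryos 169 and 158 FPKM, a difference of −6.45 ± 0.23 (SE; limma adjusted p = 1.86e-13). Alppl2, an embryonic alkaline phosphatase, read 8.47, 9.26 and 8.12 FPKM in deletion oocytes and 3.04, 5.36 and 2.89 FPKM in deletion 2-cell embryos, and wild-type 2-cell embryos 273 and 306 FPKM, a difference of −6.61 ± 0.25 (SE; limma adjusted p = 2.11e-13). For both, every wild-type 2-cell library lay above every deletion library. Prps1, a phosphoribosyl pyrophosphate synthetase, read 6.55, 7.21 and 6.70 FPKM against 189 and 163 FPKM, a difference of −5.52, and Guca1a, a guanylate cyclase activator, 3.79, 1.90 and 2.24 FPKM against 114 and 108 FPKM, a difference of −5.68. B020031M17Rik, Gm16381, Gm11544 and Gm8994 differed by −6.20, −5.78, −5.71 and −5.57, all called. Snhg9, a small nucleolar RNA host gene, was listed at 0 in every deletion 2-cell library and read 11.1 and 35.5 FPKM in wild type.

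The upstream DNA of 5 of these genes is shown because CFP1 binds CG dinucleotides: Zp3, the gene whose promoter drives the Cre, Padi6 and Oosp2, which stood above wild type at the 2-cell stage, and Alppl2 and Slc34a2, which stayed low. The windows are the 250 bases before each RefSeq start (build GRCm38.p6), 5′ to 3′ on the gene's strand, with each CG in capitals. They lie at chr5:135979855-135980104, plus strand for Zp3, chr4:140742644-140742893, minus strand for Padi6, chr19:11660560-11660809, minus strand for Oosp2, chr1:87089929-87090178, minus strand for Alppl2 and chr5:53049103-53049352, plus strand for Slc34a2.
Zp3: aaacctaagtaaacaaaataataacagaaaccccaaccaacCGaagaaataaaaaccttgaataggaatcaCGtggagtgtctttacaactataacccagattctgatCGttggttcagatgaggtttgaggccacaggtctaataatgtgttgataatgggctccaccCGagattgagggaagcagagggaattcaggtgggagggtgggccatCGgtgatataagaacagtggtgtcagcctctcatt
Padi6: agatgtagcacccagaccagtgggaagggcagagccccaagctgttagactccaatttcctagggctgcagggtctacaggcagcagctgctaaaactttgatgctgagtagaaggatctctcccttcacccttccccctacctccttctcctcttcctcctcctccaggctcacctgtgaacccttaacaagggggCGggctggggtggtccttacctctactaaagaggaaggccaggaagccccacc
Oosp2: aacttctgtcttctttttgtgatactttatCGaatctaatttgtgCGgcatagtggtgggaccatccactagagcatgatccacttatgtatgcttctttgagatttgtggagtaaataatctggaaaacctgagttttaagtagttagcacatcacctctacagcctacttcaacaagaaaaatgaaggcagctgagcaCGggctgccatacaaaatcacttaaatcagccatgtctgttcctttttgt
Alppl2: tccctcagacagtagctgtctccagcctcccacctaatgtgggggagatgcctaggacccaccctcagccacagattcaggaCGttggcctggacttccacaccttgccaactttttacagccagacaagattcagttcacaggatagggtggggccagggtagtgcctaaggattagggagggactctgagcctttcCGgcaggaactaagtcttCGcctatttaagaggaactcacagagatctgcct
Slc34a2: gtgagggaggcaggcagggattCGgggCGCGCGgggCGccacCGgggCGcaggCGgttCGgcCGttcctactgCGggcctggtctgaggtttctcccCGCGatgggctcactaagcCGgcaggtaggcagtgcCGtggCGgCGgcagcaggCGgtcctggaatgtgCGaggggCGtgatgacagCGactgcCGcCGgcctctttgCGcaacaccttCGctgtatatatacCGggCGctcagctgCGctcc

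The motif CG reads the same on both strands and is held by 92.1% of all 32851 RefSeq windows of this length, with a median of 6 per window. It occurred 5 times in the Zp3 window, 1 time in Padi6, 3 times in Oosp2, 3 times in Alppl2 and 28 times in Slc34a2. Only 7.61% of windows hold as many as that of Slc34a2, and 71.0% hold at least as many as that of Alppl2, so these 2 genes, both low without Cxxc1, differ in CG content. Symbols of 9057 counted genes (76.0%) had a window, and no comparison of CG content between gene sets was made at that coverage.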

How the data were processed

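RNA of 23 libraries in 8 groups was measured as FPKM. Per the labels' protocols RNA was extracted with an RNeasy micro kit and libraries were built with the NEBNext Ultra RNA kit. The tools, per the submitters' processing notes, included CASAVA 1.4, TopHat2 2.0.12, Cufflinks 2.2.1 and SAMtools, and the builds mm10 and mm9; which build served the RNA, the annotation, the strand setting and poly(A) selection were not given in the sources used here, so no coordinates come from the table. The values used are the FPKM the authors deposited, per gene and library; read depth is unknown, and an exact 0 may be a failed estimate, so such genes are called listed at 0.

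Genes at FPKM of at least 1 in at least 2 of all 23 libraries were fitted (13776 genes) as log2(FPKM + 1), a pseudocount of 1, with limma 3.58.1 in R 4.3.3 (groups as means, empirical Bayes with trend, 15 residual degrees of freedom), tested two-sided, and adjusted by Benjamini-Hochberg over all of them; a call is an adjusted p under 0.05. The difference from wild type is the interaction contrast (deletion 2-cell minus deletion GV) minus (wild-type 2-cell minus wild-type GV). The fit was tested on simulated data. A total of 27 entries with names changed to dates stayed in the fit and are not named.

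Named genes were the 10 largest called rises and falls without overlap between stages at a mean FPKM of at least 5, the abundant genes of least change, the largest changes among the 100 most abundant oocyte genes, the 10 largest called differences from wild type in each direction, and list members by size of change; of these a selection is printed. The members and lists were chosen with earlier results of these data known. Alternatives were scaling, pseudocount, filter, fits to fewer libraries, array weights, a replicate block and each library left out. Promoter windows are RefSeq's for GRCm38.p6.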

Additional observations from a re-analysis of the deposited data

Results flagged for a closer look

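The stage change differed between genotypes for many counted genes. The interaction contrast of limma put the stage change without Cxxc1 above wild type for 4072 genes and below it for 2970, counts whose excess of higher genes went to 3484 against 3338 after median-of-ratios scaling and to 4138 against 4271 with no filter on low values. Among them 639 genes fell without Cxxc1 and rose in wild type, and 514 rose without Cxxc1 and fell in wild type.

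The named genes whose changes were called in opposite directions, with the difference itself called, are given as the log2 difference, deletion minus wild type. Genes of this kind that rose without Cxxc1 were Srp54c at 5.04, Pfdn4 at 4.5, Lsm5 at 3.97, Dazl at 3.10, Nlrp4e at 2.60, Dcp1a at 2.55, Oosp3 at 2.29, Cnot6l at 1.79, Cd9 at 1.78 and Oosp1 at 1.44, all of which fell in wild type. The reverse held for Alppl2 at −6.61, Hspa1a at −5.63, Dppa4 at −4.71, Hspa1b at −4.57, Nop2 at −4.57, Nob1 at −4.08, Rrp9 at −4.06, Snrpc at −2.82 and Aurkb at −2.41, which fell without Cxxc1 and rose in wild type.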

How the results depend on the processing

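Whether more genes were higher or lower depended on the settings: quantile normalization called 4004 higher and 3946 lower genes (4207 and 3799 without 2-cell library 3), and with no filter 4138 genes had a higher and 4271 a lower stage change than in wild type. With each library left out in turn, 2710 to 2914 genes were higher and 4891 to 5430 lower in deletion 2-cell embryos, and 3687 to 4162 had a higher and 2630 to 3243 a lower stage change than in wild type. The shares of oocyte genes then ranged from 88.1% to 91.4% at an FPKM of at least 1 and from 64.3% to 68.3% at 0.5 or more of the oocyte level, the oocyte FPKM in genes that fell at least 4-fold from 15.1% to 18.4%, and the FPKM of genes under 1 in oocytes from 0.644% to 1.57%, where 2-cell library 3 set the lower end. A minimum of 5 FPKM gave 1869 genes with a lower stage change, 82.4% of oocyte genes still at the minimum and 4.18% of FPKM in genes under it in oocytes. The share at 0.5 or more of the oocyte level was 73.6% after median-of-ratios scaling and 73.9% after quantile normalization, and the first of these put 12.5% of oocyte FPKM in genes that fell at least 4-fold. Fitting the 6 compared libraries alone called 2257 higher and 4307 lower genes.

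Replicate numbers of the deletion groups shared only a number: deviations from the group means correlated at 0.128, −0.00325 and 0.0306 within pairs. A fit with the replicate block called 2894 higher and 5220 lower genes; restricted to the compared libraries it called 2061 and 4068.

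Of 278 gene results, 20 lost their call under at least 1 alternative. Reversals came with other scaling. The difference from wild type of Cks2 was −0.50 after quantile normalization, with and without 2-cell library 3. Without that library, chosen after seeing the data, median-of-ratios scaling gave 0.30 for D6Ertd527e, 0.40 for Pttg1 and 0.29 for Skp1a as stage changes, and −1.5 for the difference of Saa3 from wild type. Each of these stage changes, not called on deposited FPKM, was called there (limma adjusted p = 0.0149, 0.03 and 0.0183). The cause was not tested. Depth is unknown, so no interval for counting error can be given, and 2 wild-type 2-cell libraries limit each difference from wild type.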

Other observations

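Near-equal levels at both ends hid movement in between for some abundant messages. AU022751 changed by 1.59 ± 0.18 (SE; limma adjusted p = 1.90e-07) from deletion oocyte to zygote and by −1.55 ± 0.18 (SE; limma adjusted p = 9.37e-07) from zygote to 2-cell embryo on the log2 scale, with 447, 384 and 519 FPKM in oocytes, 1344, 1418 and 1291 FPKM in zygotes and 522, 595 and 310.4 FPKM in 2-cell embryos. D6Ertd527e had the same course, with changes of 0.87 and −0.95. The peroxiredoxin gene Prdx2 and the cap-binding protein gene Eif4e1b took the opposite course, with −1.05 and then 1.12 for Prdx2 and −0.54 and then 0.56 for Eif4e1b, each step called. These step comparisons share the zygote libraries, and the zygote value alone enters both with opposite sign. The steps of single genes are on deposited FPKM and were not examined under the other scalings. The medians of all counted genes, −0.37 and then 0.23, became −0.07 and 0.15 after median-of-ratios scaling. Quantile normalization gave 0.11 and 0.02, a shift near the size of the Eif4e1b steps for the first transition.

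Markers of other cell types that passed the counting rule were few. Of 11 granulosa and cumulus markers counted, 5 were lower in deletion 2-cell embryos, a share near the 43.9% of all counted genes. Without the third library 8 of 10 were lower, against 46.9% of all genes then counted. Of 6 stroma and muscle markers counted, 2 were higher and 1 lower, with a median of 1.30; without the third library 5 were counted, 1 higher and 1 lower, with a median of −0.27.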
